A study of Mus musculus with 8 samples.

Results

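The circadian clock genes were followed in RNA sequencing of mouse cerebellum, in 4 *Atm*-WT and 4 *Atm*-KO mice. Atm encodes the kinase that signals DNA double-strand breaks, and its loss in people causes ataxia-telangiectasia. The *Atm*-KO mice (genotype ATM -/- in the labels) carried the Atmtm1Bal allele on a mixed strain background, and the *Atm*-WT mice (ATM +/+, Control in the labels) were their littermates from crosses of heterozygous parents. All mice were 6 months old and untreated, were kept on 12 h of light and 12 h of dark with food at all times, and were perfused with saline under avertin before the cerebellum was frozen. Each library was 1 mouse, named here by the number and letter of its label: 2M, 7M, 13M and 32M in *Atm*-WT and 1M, 7F, 11M and 12M in *Atm*-KO. The 10 members were taken by symbol from a list drawn up with earlier results of these data known: *Per1*, *Per2*, *Per3*, *Cry1*, *Cry2*, *Nr1d1*, *Nr1d2*, *Bmal1* (*Arntl* in older annotations), *Dbp* and *Hlf*. All 10 were in the table of 56691 genes and all 10 were among the 22423 genes with enough counts to be tested, so no member was lost to a filter.

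The clock is a loop of transcription. BMAL1 with its partner CLOCK switches on the *Per* and *Cry* genes, the *Nr1d* genes and *Dbp* through E-boxes, and the PER and CRY proteins then return to the nucleus and inhibit BMAL1 and CLOCK. The NR1D1 and NR1D2 proteins (REV-ERBs) are nuclear receptors that repress *Bmal1* through ROR elements, which the ROR receptors use to activate it. DBP, HLF and TEF are PAR bZIP factors that activate genes through D-boxes, and NFIL3 represses the same sites. Over a day *Bmal1* mRNA therefore peaks when *Dbp* and *Nr1d1* are lowest, and a tissue sampled at a single hour gives a snapshot of that phase. The hour at which each cerebellum was taken is not given in the sources used here, so a difference in hour, in the phase of the clock and in the amount of clock gene RNA cannot be told apart.

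The promoters of 4 members are shown as examples of where letters of clock elements stand before the start. Sequences were read from GRCm39 at the start of the canonical GENCODE vM39 transcript, 5′ to 3′ on the strand of the gene, and end at the base before the start, except for *Per2*, where 23 bases belonging to an exon were left out. The positions are *Per1*, chr11:68989018-68989267 (plus strand), *Per2*, chr1:91387070-91387296 (minus strand), *Per3*, chr4:151129141-151129390 (minus strand) and *Dbp*, chr7:45354262-45354511 (plus strand). Capitals mark the E-box CACGTG in *Per1*, the D-box TTATGTAA in *Per2* and *Per3*, and the ROR element cores TGGGTCA and TAGGTCA in *Dbp*.
Per1 promoter: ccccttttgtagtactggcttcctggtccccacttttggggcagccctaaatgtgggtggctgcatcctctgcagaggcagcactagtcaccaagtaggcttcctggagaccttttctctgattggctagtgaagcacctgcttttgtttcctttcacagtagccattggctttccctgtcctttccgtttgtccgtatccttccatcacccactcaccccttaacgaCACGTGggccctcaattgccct
Per2 promoter: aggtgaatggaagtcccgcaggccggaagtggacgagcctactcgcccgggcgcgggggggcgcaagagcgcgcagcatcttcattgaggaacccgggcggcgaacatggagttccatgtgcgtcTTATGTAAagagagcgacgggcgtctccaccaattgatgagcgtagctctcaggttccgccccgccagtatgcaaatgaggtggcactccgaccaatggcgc
Per3 promoter: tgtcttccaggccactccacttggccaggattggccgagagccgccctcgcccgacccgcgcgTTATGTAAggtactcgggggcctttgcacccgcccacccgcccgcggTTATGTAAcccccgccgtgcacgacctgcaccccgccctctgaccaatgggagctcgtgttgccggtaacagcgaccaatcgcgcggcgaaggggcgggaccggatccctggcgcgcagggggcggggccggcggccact
Dbp promoter: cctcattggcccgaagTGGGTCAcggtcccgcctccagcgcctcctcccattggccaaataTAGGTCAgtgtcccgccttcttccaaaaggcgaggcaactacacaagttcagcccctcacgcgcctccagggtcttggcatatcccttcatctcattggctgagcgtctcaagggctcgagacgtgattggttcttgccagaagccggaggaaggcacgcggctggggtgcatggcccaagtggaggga

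Over the 250 bases before the start, on both strands, CACGTG was found in 2 of 10 members, in *Per1* at bases 22 to 17 before the start and in *Cry1* at bases 29 to 24, and in 6.26% of 21757 protein-coding promoters. The D-box, searched as TTATGTAA or TTACGTAA, was found in 2 members, once in *Per2* at bases 125 to 118 and at 2 places in *Per3*, at bases 187 to 180 and 140 to 133. It was in 0.933% of all promoters. The ROR element core, searched as TAGGTCA or TGGGTCA, was found in *Dbp* alone among the members, at bases 234 to 228 and 189 to 183, and in 5.26% of all promoters. The cAMP response element TGACGTCA was in 0 members and in 1.7% of all promoters. Among 23 further clock genes described later, CACGTG was in *Tef*, *Ciart* (at 3 places), *Bhlhe40* and *Usp2*. In *Cry1* all 250 bases of the window, in *Bmal1* 241 and in *Nr1d1* 29 lie in exons of other transcripts of the same gene. The *Per1* window, with 0 bases in exons of *Per1*, lies wholly within the annotated gene, which begins at chr11:68986035. Those of *Tef* and *Ciart* also lie within their genes. For all of these the window is not only sequence ahead of the gene. No match in a member overlapped another, and a match describes letters in a window, not a bound site.

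The libraries held 65967130 to 88030300 counts. Levels are in CPM, counts scaled to the size of the library after TMM normalization. The targeted gene *Atm* had a mean of 71.5 ± 10.1 CPM (SD, n = 4) in *Atm*-WT mice against 45.4 ± 4.16 CPM in *Atm*-KO mice, and its genotypes did not overlap (log2 fold change -0.66, SE 0.10, edgeR adjusted p = 0.0775). *Xist*, the RNA of the inactive X chromosome, was at 910 CPM in 7F and at most 0.163 CPM in the other 7 mice, so 7F was female and the others male. Libraries also differed by genotype in the share of counts in TEC genes, the GENCODE class of transcripts awaiting experimental tests, at 0.204% to 0.333% of counts in *Atm*-WT mice against 0.354% to 0.529% in *Atm*-KO mice (exact permutation test, two-sided, p = 0.0286, which is the smallest p for 4 against 4). The part of this difference in the values below was not tested.

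The loop was clearly expressed in every cerebellum. Per kilobase of exon in *Atm*-WT, the highest members were *Nr1d2* (34.0 CPM per kb), *Nr1d1* (32.3) and *Hlf* (32.1), whose mice overlapped. The length used was every exon base annotated for a gene, 3242 in *Nr1d1* and 11573 in *Bmal1*, and not the length of the transcript expressed. The order below is therefore one of this measure, and *Nr1d1* also carries the overlap with *Thra* described later. A step separated *Hlf*, at no less than 31.2 CPM per kb in any *Atm*-WT mouse, from *Dbp*, at no more than 17.6. From *Dbp* (15.4 CPM per kb) through *Cry2* (14.5), *Cry1* (11.5), *Per1* (10.3), *Per2* (6.87) and *Per3* (5.03), each gene overlapped the next in the order. *Bmal1* was last at 3.35 CPM per kb, and its highest *Atm*-WT mouse, at 3.76, lay below the lowest for *Per3*, at 4.05.

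Between genotypes, 8 of the 10 clock genes had a lower mean in *Atm*-KO and 2, *Per3* and *Bmal1*, a higher one. The median log2 fold change was -0.22, against -0.02 over all genes tested, of which 53.1% were lower. In edgeR's quasi-likelihood test 3 of 10 members were lower at an unadjusted p under 0.05, *Per1*, *Nr1d1* and *Hlf*, and 0 were higher, while 8.48% of all genes tested were lower at that threshold, 11.7% higher and 20.2% either. Among the 4643 genes whose mean lay within the members' range, 41 to 293 CPM, a set added after the values were seen, 70% were lower and 16.1% were lower at that threshold. After Benjamini-Hochberg adjustment over all genes 0 members passed 0.05 in edgeR, with adjusted p of 0.0942 to 0.434, and 0.0178% of all genes, 4 in number, did. *Hlf* alone had genotypes that did not overlap, 1 of 10 members, where 5.12% of all genes lay apart with *Atm*-KO lower and 6.47% with *Atm*-KO higher. DESeq2 gave 2 members an adjusted p under 0.05, *Hlf* (0.012) and *Nr1d1* (0.0349), with 7.49% of its 20724 genes called, and 4 an unadjusted one, as did 22.4% of those genes. In limma voom 0 members passed the adjusted threshold (0.0134% of all genes) and 3 the unadjusted one (20.3% of all genes).

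**Figure D1:**
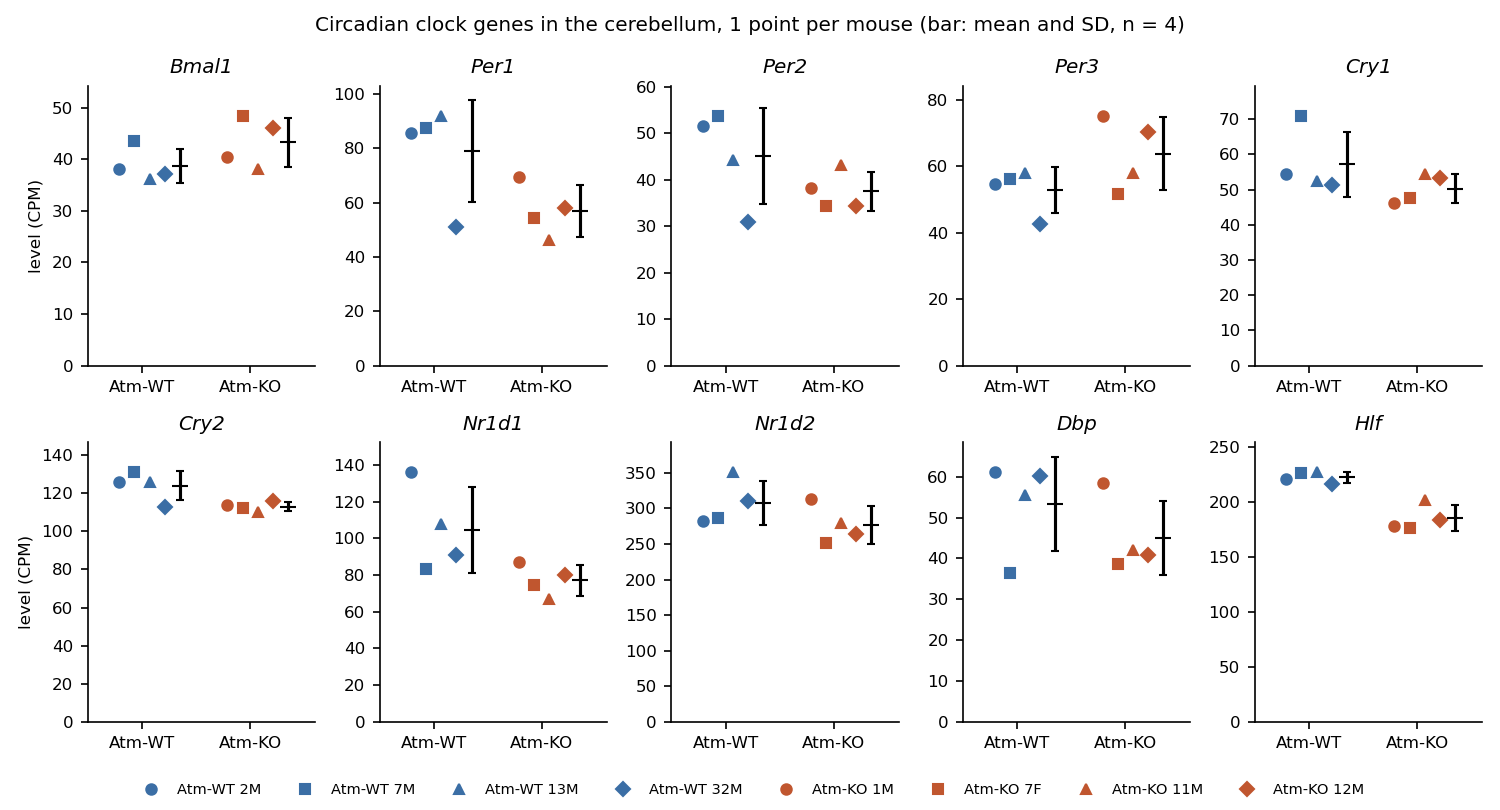
Level of each clock gene in CPM (vertical axis from 0, a scale per panel) in every mouse, with 1 symbol per mouse, *Atm*-WT in blue and *Atm*-KO in orange, and the mean and SD of 4 mice as black bars. Only in the *Hlf* panel do all *Atm*-KO points lie below all *Atm*-WT points, and *Per3* and *Bmal1* are the panels with the higher *Atm*-KO mean.

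*Bmal1* (ENSMUSG00000055116, chr7:112806152-112914735, plus strand), the activator of the loop, was 38.2 CPM in 2M, 43.5 in 7M, 36.1 in 13M and 37.1 in 32M of *Atm*-WT, and 40.5 in 1M, 48.4 in 7F, 38.2 in 11M and 46.1 in 12M of *Atm*-KO. Mice 7F and 12M were above every *Atm*-WT mouse, and the other *Atm*-KO mice lay within the *Atm*-WT range. The means were 38.7 ± 3.29 and 43.3 ± 4.79 CPM (SD, n = 4), a log2 fold change of 0.16 (SE 0.091, edgeR adjusted p = 0.341). With 1 library left out it ran from 0.12 without the female 7F (edgeR unadjusted p = 0.222) to 0.23 without 11M (edgeR unadjusted p = 0.0311). With library size alone in place of TMM it was 0.21 (edgeR unadjusted p = 0.0314). *Clock*, the partner of *Bmal1*, had nearly equal means, 239 ± 17.3 and 243 ± 9.56 CPM (log2 fold change 0.02).

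*Per1* (ENSMUSG00000020893, chr11:68986035-69002300, plus strand), a repressor of the loop that also answers to light, glucocorticoid and cAMP signals, had the lowest log2 fold change among the members. It was 85.5 CPM in 2M, 87.5 in 7M, 91.9 in 13M and 51.0 in 32M of *Atm*-WT, and 69.4 in 1M, 54.2 in 7F, 46.4 in 11M and 58.2 in 12M of *Atm*-KO. The genotypes overlapped through 1 *Atm*-WT mouse, 32M, which was below 3 of the *Atm*-KO mice. The means were 79.0 ± 18.8 and 57.0 ± 9.58 CPM (log2 fold change -0.47, SE 0.17, unadjusted p = 0.0182, edgeR adjusted p = 0.168). Without 32M, the mouse against the difference, the log2 fold change was -0.63 (edgeR unadjusted p = 0.000164, edgeR adjusted p = 0.158). Without *Atm*-WT mouse 13M the unadjusted p was 0.0646, and without *Atm*-KO mouse 11M it was 0.0611 (both edgeR).

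*Per2* (ENSMUSG00000055866, chr1:91343700-91387069, minus strand), the closest partner of *Per1* in the loop, was 51.6, 53.7, 44.2 and 31.0 CPM in *Atm*-WT mice 2M, 7M, 13M and 32M, and 38.2, 34.3, 43.2 and 34.4 CPM in *Atm*-KO mice 1M, 7F, 11M and 12M. As with *Per1*, 32M was the lowest *Atm*-WT mouse, here below every *Atm*-KO mouse. The means were 45.1 ± 10.2 and 37.5 ± 4.21 CPM (log2 fold change -0.27, SE 0.15, edgeR adjusted p = 0.34). Without 32M the log2 fold change of *Per2* was -0.41 (edgeR unadjusted p = 0.00177, edgeR adjusted p = 0.158), and without *Atm*-WT mouse 7M it was -0.17.

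*Per3* (ENSMUSG00000028957, chr4:151081373-151129140, minus strand), the third *Per* gene and the least needed for rhythm in mice, was a member with a higher mean in *Atm*-KO. It was 54.7, 56.0, 57.8 and 42.5 CPM in *Atm*-WT mice 2M, 7M, 13M and 32M, and 75.1, 51.5, 58.0 and 70.4 CPM in *Atm*-KO mice 1M, 7F, 11M and 12M. Mice 1M, 11M and 12M were above every *Atm*-WT mouse, 11M by little, and the female 7F was not. The means were 52.7 ± 6.96 and 63.8 ± 10.9 CPM (log2 fold change 0.27, SE 0.13, unadjusted p = 0.0523, edgeR adjusted p = 0.252). Without 7F, which leaves males alone, the log2 fold change was 0.38 (edgeR unadjusted p = 0.00772, edgeR adjusted p = 0.106), and without 32M it was 0.18.

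Of the 3 pairs of *Per* genes, the ratio of *Per3* to *Per1* did not overlap between genotypes and the others did. *Per3* counts divided by *Per1* counts were 0.639 in 2M, 0.64 in 7M, 0.629 in 13M and 0.832 in 32M of *Atm*-WT, and 1.08 in 1M, 0.95 in 7F, 1.25 in 11M and 1.21 in 12M of *Atm*-KO. Mouse 32M, low in all 3 *Per* genes, had the highest ratio of its genotype, still below the lowest *Atm*-KO mouse. The difference of the log2 ratio of *Per1* to *Per3* was -0.72, from a mean of 0.56 in *Atm*-WT to -0.16 in *Atm*-KO. This pair was chosen after its values were seen and was given no test. Of the 45 pairs of members, 6 had log2 ratios that did not overlap between genotypes, 5 of them pairs with *Per3* (with *Per1*, *Cry2*, *Nr1d1*, *Nr1d2* and *Hlf*) and 1 the pair of *Cry2* with *Bmal1*. Over all pairs of genes tested 10.3% did not overlap, and 7.18% of all genes did not overlap in their ratio to *Per3*. A ratio of this kind lies within a library and does not depend on how libraries are scaled.

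**Figure D2:**
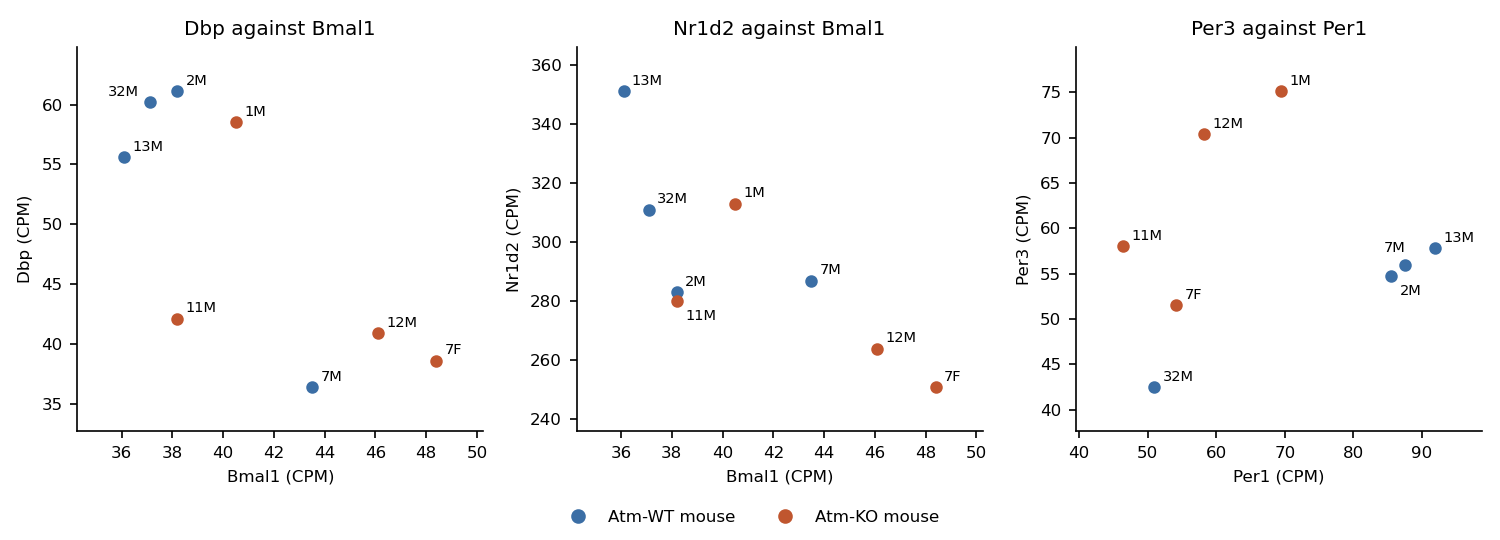
Each point is a mouse, *Atm*-WT in blue and *Atm*-KO in orange, at its level in CPM of *Bmal1* against *Dbp*, *Bmal1* against *Nr1d2*, and *Per1* against *Per3* (axes do not start at 0). The first and second panels slope down, with 7M of *Atm*-WT (*Dbp* 36.4 CPM) beside the *Atm*-KO mice 7F and 12M, and in the third the *Atm*-KO mice lie to the left of 2M, 7M and 13M of *Atm*-WT, with 7F (*Per3* 51.5 CPM) below these in height and 32M of *Atm*-WT (*Per1* 51.0 CPM, *Per3* 42.5 CPM) lowest of all.

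The cryptochromes are the strongest repressors in the loop. *Cry1* (ENSMUSG00000020038, chr10:84967560-85021252, minus strand) was 54.4, 70.9, 52.4 and 51.2 CPM in *Atm*-WT mice 2M, 7M, 13M and 32M, and 46.2, 47.5, 54.3 and 53.2 CPM in *Atm*-KO mice 1M, 7F, 11M and 12M. Mouse 7M stood alone above the rest. The means were 57.2 ± 9.2 and 50.3 ± 4.05 CPM (log2 fold change -0.19, SE 0.11, edgeR adjusted p = 0.341), and without 7M the log2 fold change was -0.07. *Cry2* (ENSMUSG00000068742, chr2:92233894-92264474, minus strand) was 126, 131, 126 and 113 CPM in *Atm*-WT, and 114, 112, 110 and 116 CPM in *Atm*-KO, in the same order of mice. It was the steadiest member, 1.19-fold from the lowest to the highest mouse, and 32M was the *Atm*-WT mouse inside the *Atm*-KO range. The means were 124 ± 7.59 and 113 ± 2.66 CPM (log2 fold change -0.13, SE 0.061, unadjusted p = 0.0501, edgeR adjusted p = 0.248). Its log2 fold change was -0.18 without 32M (edgeR unadjusted p = 0.0104, edgeR adjusted p = 0.213) and -0.08 with library size alone in place of TMM (edgeR unadjusted p = 0.181).

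*Nr1d1* (ENSMUSG00000020889, chr11:98658752-98666188, minus strand), the REV-ERB that represses *Bmal1*, was 136 CPM in 2M, 83.4 in 7M, 108 in 13M and 91.0 in 32M of *Atm*-WT, and 87.0 in 1M, 74.7 in 7F, 67.2 in 11M and 79.8 in 12M of *Atm*-KO. It varied most of all members, 2.03-fold over the 8 mice, and 3 of the 4 *Atm*-KO mice were below every *Atm*-WT mouse. The means were 105 ± 23.5 and 77.2 ± 8.35 CPM (log2 fold change -0.44, SE 0.14, unadjusted p = 0.00809, edgeR adjusted p = 0.132). Without 2M, its highest mouse, the log2 fold change was -0.29 (edgeR unadjusted p = 0.0228).

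The *Nr1d1* count has a limit of its own. The gene shares 1694 exon bases (52.25% of its exon bases) with *Thra*, a thyroid hormone receptor on the opposite strand, and whether counting used the strand is not given in the sources used here. *Thra* was 282, 250, 253 and 275 CPM in *Atm*-WT mice 2M, 7M, 13M and 32M, and 223, 220, 219 and 233 CPM in *Atm*-KO mice 1M, 7F, 11M and 12M, with no overlap. Its log2 fold change was -0.24 (SE 0.062, unadjusted p = 0.00217, edgeR adjusted p = 0.102), and its part in the *Nr1d1* value was not tested.

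*Nr1d2* (ENSMUSG00000021775, chr14:4230545-4266624, plus strand), the second REV-ERB, had no listed overlap and was 283, 287, 351 and 311 CPM in *Atm*-WT mice 2M, 7M, 13M and 32M, and 313, 251, 280 and 264 CPM in *Atm*-KO mice 1M, 7F, 11M and 12M. Mice 7F, 11M and 12M were below every *Atm*-WT mouse, and 1M was above 3 of them. The means were 308 ± 31.5 and 277 ± 26.5 CPM (log2 fold change -0.15, SE 0.089, edgeR adjusted p = 0.355). The log2 fold change was -0.07 without *Atm*-WT mouse 13M, -0.09 without *Atm*-KO mouse 7F and -0.22 without *Atm*-KO mouse 1M (edgeR unadjusted p = 0.0354).

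The output factors *Dbp* and *Hlf* differed in how much they varied. *Dbp* (ENSMUSG00000059824, chr7:45354512-45359627, plus strand) was 61.1, 36.4, 55.6 and 60.2 CPM in *Atm*-WT mice 2M, 7M, 13M and 32M, and 58.5, 38.6, 42.1 and 40.9 CPM in *Atm*-KO mice 1M, 7F, 11M and 12M. The mice lay in a high set of 4 and a low set of 4, with 3 *Atm*-WT mice and 1M of *Atm*-KO in the high set and 3 *Atm*-KO mice and 7M of *Atm*-WT, the lowest mouse of all, in the low set. The means were 53.3 ± 11.6 and 45.0 ± 9.08 CPM (log2 fold change -0.24, SE 0.17, edgeR adjusted p = 0.434). It was -0.39 on the log2 scale without 7M (edgeR unadjusted p = 0.0114, edgeR adjusted p = 0.142), -0.40 without 1M (edgeR unadjusted p = 0.0287, edgeR adjusted p = 0.339) and -0.16 without 7F. *Dbp* shares 15.53% of its exon bases with *Sphk2* on the opposite strand, which was 26.8 ± 1.47 and 28.2 ± 1.99 CPM (log2 fold change 0.08).

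*Hlf* (ENSMUSG00000003949, chr11:90227221-90281761, minus strand) was 221, 226, 227 and 216 CPM in *Atm*-WT mice 2M, 7M, 13M and 32M, and 178, 176, 202 and 184 CPM in *Atm*-KO mice 1M, 7F, 11M and 12M. All *Atm*-KO mice were below all *Atm*-WT mice. The means were 222 ± 4.84 and 185 ± 11.9 CPM, a difference of -16.9% (log2 fold change -0.27, SE 0.062, unadjusted p = 0.0011, edgeR adjusted p = 0.0942). Its coefficient of variation in *Atm*-WT was 2.18%, the smallest of the members, and that of *Per1*, 23.8%, the largest. Leaving out each library in turn kept the unadjusted edgeR p of *Hlf* under 0.05.

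The relation of opposed genes was then read per mouse, as the log2 ratio of each other member to *Bmal1* in the same library. For *Dbp*, the member set against *Bmal1* in textbook accounts, the log2 ratio was 0.68 in 2M, -0.26 in 7M, 0.62 in 13M and 0.70 in 32M of *Atm*-WT, and 0.53 in 1M, -0.33 in 7F, 0.14 in 11M and -0.17 in 12M of *Atm*-KO. A positive value means more *Dbp* counts than *Bmal1* counts. Mice 7M, 7F and 12M were below 0, and 7M of *Atm*-WT was closest to 12M and 7F of *Atm*-KO. The means were 0.44 ± 0.46 and 0.04 ± 0.38 (SD, n = 4), a difference of -0.39 (two-sided exact permutation test, p = 0.2). Without 7M the difference was -0.62 (exact p = 0.0571).

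The ratio to *Bmal1* had a lower mean in *Atm*-KO for 8 of 9 members, and *Per3* was the exception (difference of means 0.11). These directions restate the log2 fold changes given above, where *Bmal1* was higher at 0.16 and *Per3* at 0.27. They are not a further result, and the share of all genes with a lower ratio to *Bmal1* was not counted. *Cry2* to *Bmal1* alone did not overlap, 1 of 9 members where 8.25% of all genes lay apart in their ratio to *Bmal1*, with *Atm*-WT mice at 1.59 to 1.80 and *Atm*-KO mice at 1.21 to 1.53. *Per1* to *Bmal1* was 1.16, 1.01, 1.35 and 0.46 in *Atm*-WT mice 2M, 7M, 13M and 32M, and 0.78, 0.16, 0.28 and 0.34 in *Atm*-KO mice 1M, 7F, 11M and 12M, the widest difference of means at -0.61. Mouse 32M was low in this ratio while it was the highest *Atm*-WT mouse for *Dbp* to *Bmal1*, so the mice did not keep a single order across members. *Nr1d1* to *Bmal1* was 1.83, 0.94, 1.58 and 1.29 in *Atm*-WT, and 1.10, 0.62, 0.82 and 0.79 in *Atm*-KO. These ratios share *Bmal1*, and their differences are given without a test.

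**Figure D3:**
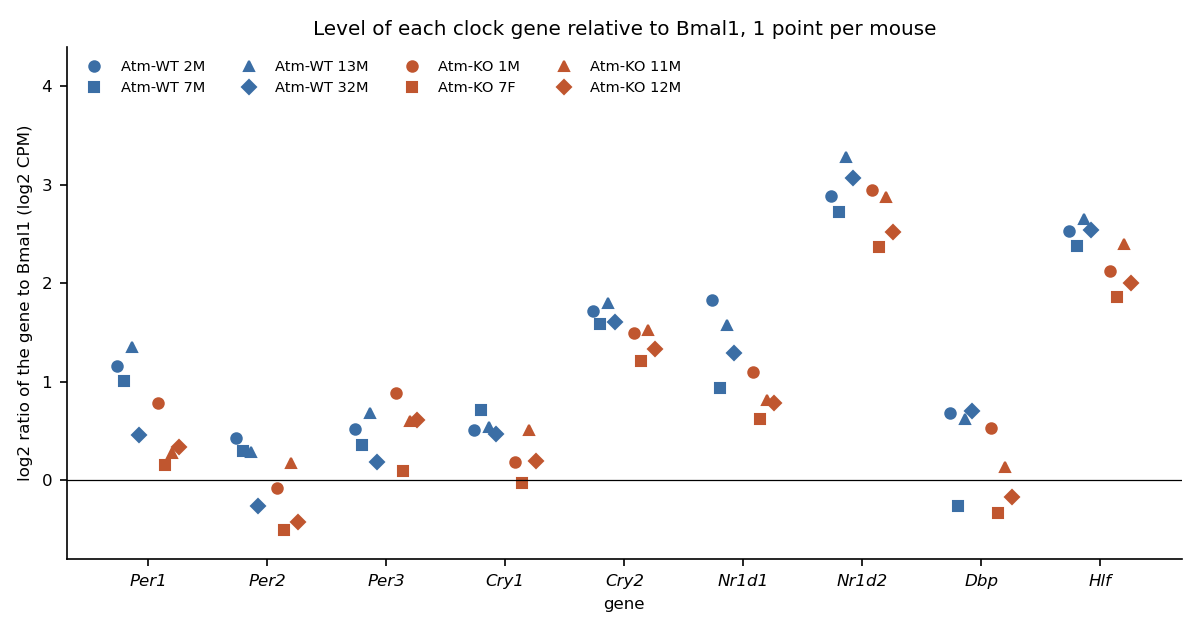
The vertical axis is the log2 ratio of each clock gene to *Bmal1* within a library, with 1 symbol per mouse, *Atm*-WT in blue and *Atm*-KO in orange. The ratio of *Cry2* is the one where the colours do not overlap (lowest *Atm*-WT mouse 1.59, highest *Atm*-KO mouse 1.53), and 7M, the blue square, is the *Atm*-WT mouse lowest for *Dbp* (-0.26), *Nr1d1* (0.94), *Nr1d2* (2.72), *Cry2* and *Hlf* (2.38).

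*Bmal1* was then set against each other member over the 8 mice. Pearson's r of log2 CPM with *Bmal1* was -0.80 for *Nr1d2* (exact permutation p = 0.0154, adjusted over 9 members 0.138) and -0.74 for *Dbp* (exact p = 0.0481, adjusted 0.217). Spearman's rho was -0.71 for *Nr1d2* (exact p = 0.0576) and -0.62 for *Dbp* (exact p = 0.115), each with an adjusted p of 0.345. Without 7F and 12M, the mice farthest from the median of *Bmal1*, r was -0.51 for *Nr1d2* and -0.63 for *Dbp*. With each genotype's mean taken out, r was -0.72 for *Nr1d2* (exact permutation p = 0.0729) and -0.68 for *Dbp* (exact permutation p = 0.0833). With library size alone r was -0.71 for *Nr1d2* (exact permutation p = 0.055) and -0.58 for *Dbp* (exact permutation p = 0.14).

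*Hlf* (r = -0.65, exact permutation p = 0.0844; rho = -0.64, exact p = 0.0962) had r = -0.18 without 7F and 12M, -0.48 without 7F alone and -0.84 without 7M. With genotype means taken out it was -0.45, and with library size alone in place of TMM -0.86 (exact permutation p = 0.00623, adjusted 0.056). *Nr1d1* had r = -0.49 (exact p = 0.221) and rho = -0.52 (exact p = 0.197), with r = -0.31 without 7F and 12M, -0.74 without 11M (exact p = 0.0482) and -0.18 with genotype means taken out. The *Per* and *Cry* genes had r between -0.24 and 0.25 (adjusted exact permutation p from 0.776 to 0.957). Without 7F and 12M their r was 0.23 for *Per1*, 0.45 for *Per2*, 0.36 for *Per3*, 0.60 for *Cry1* and 0.32 for *Cry2*. Over all 8 mice 0 of 9 members passed an adjusted p of 0.05. Within a genotype there were 4 mice, too few for a correlation.

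No gene of the loop was closest to *Dbp* or *Bmal1* across the 8 libraries. Among 15738 genes with a mean of at least 1 CPM, the highest r with *Dbp* was for *Aimp1* (0.978), *Impa2* (0.973), *Abt1* (0.968), *Stk35os1* (0.960) and *Blvrb* (0.956), and 20 genes reached 0.9. The listed clock genes came later, *Ciart* at rank 92 (0.828) and *Bhlhe41* at rank 132 (0.809). For *Bmal1* the closest were *Eftud2* (0.933), *Pisd-ps2* (0.932), *Tm6sf1* (0.929), *Tmem214* (0.924) and *Ift172* (0.916), with 6 genes at 0.9 or above. With 8 libraries and so many genes these r are a description, and every gene of a library shares that library's depth and scaling.

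The wider clock was given by a list of 23 further genes, all tested. Of these 19 were lower and 4 higher in *Atm*-KO, with a median log2 fold change of -0.08. At an unadjusted p under 0.05, 4 were lower and 2 higher, or 26.1% of the list against 20.2% of all genes. Genotypes lay apart for 6 of the 23, 5 with *Atm*-KO lower (5.12% of all genes) and 1 with it higher (6.47% of all genes). None had an adjusted p under 0.05 in edgeR, and 3 did in DESeq2, which called 7.49% of its genes.

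Among the repressors and outputs of the list, *Bhlhe40* (DEC1), an E-box repressor, was 92.4, 76.8, 95.1 and 89.1 CPM in *Atm*-WT mice 2M, 7M, 13M and 32M, and 70.7, 73.3, 72.7 and 65.8 CPM in *Atm*-KO mice 1M, 7F, 11M and 12M, with no overlap. Its log2 fold change was -0.32 (SE 0.075, unadjusted p = 0.00113, edgeR adjusted p = 0.0942). *Usp2*, a rhythmic ubiquitin protease, was 112 ± 11.2 and 86.5 ± 8.47 CPM (*Atm*-WT, then *Atm*-KO; log2 fold change -0.38, SE 0.091, edgeR adjusted p = 0.0947), with no overlap. It lies 9.34 Mb from *Atm* on chromosome 9, and the part of this linkage to the targeted allele was not tested.

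*Wee1*, the G2 checkpoint kinase and an output of the clock, was 30.7 ± 2.81 and 25.0 ± 1.32 CPM (log2 fold change -0.29, SE 0.082, edgeR adjusted p = 0.113). *Fbxw11*, an F-box protein that marks PER proteins for degradation, was 320 ± 29.1 and 286 ± 6.61 CPM (log2 fold change -0.16, edgeR adjusted p = 0.23). *Csnk1d*, a casein kinase that phosphorylates PER proteins, was 120 ± 2.31 and 116 ± 0.903 CPM, apart between genotypes at a log2 fold change of -0.05 (edgeR adjusted p = 0.642). On the activating side, *Bmal2*, the paralogue of *Bmal1*, was 2.43 ± 0.43 and 3.42 ± 0.373 CPM with no overlap (log2 fold change 0.50, SE 0.18, edgeR adjusted p = 0.164).

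**Figure D4:**
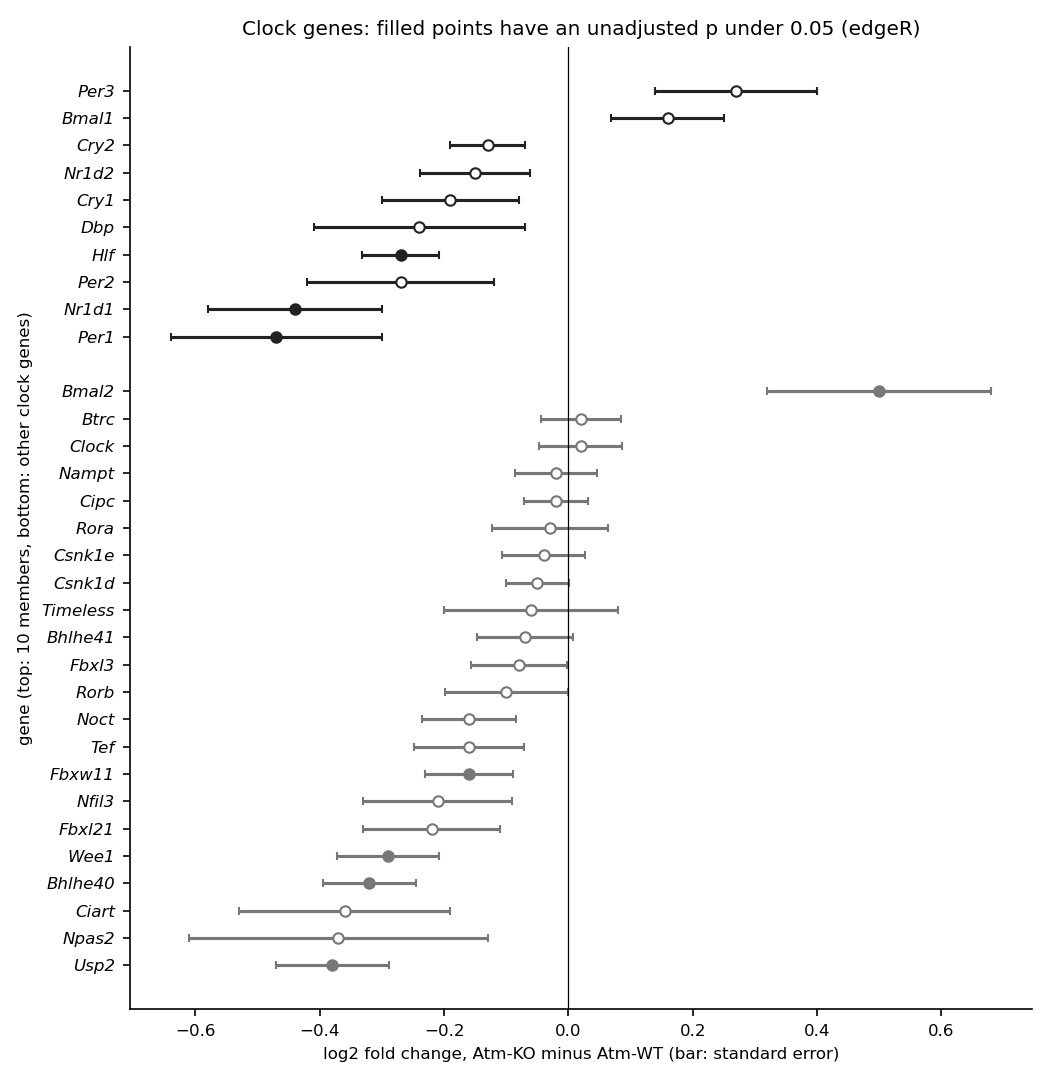
Log2 fold change of *Atm*-KO over *Atm*-WT (horizontal axis, bars for the standard error) for the 10 members above and other clock genes below, filled where edgeR's unadjusted p was under 0.05. Filled points to the left are *Per1*, *Nr1d1* and *Hlf* among the members and *Usp2*, *Bhlhe40*, *Wee1* and *Fbxw11* below, and *Bmal2* is the filled point to the right.

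Some clock genes, *Per1* above all, also answer to hormones, activity and temperature, so lists for these were read beside the members. All 12 glucocorticoid response genes had a lower mean in *Atm*-KO (median log2 fold change -0.84), 9 at an unadjusted p under 0.05, where 53.1% of all genes were lower in mean and 8.48% were lower at that threshold. Their sum ran from 823 to 1346 CPM over the *Atm*-WT mice and from 560 to 776 CPM over the *Atm*-KO mice, with no overlap. Their smallest p belonged to *Ddit4* (log2 fold change -0.53, edgeR adjusted p = 0.0931), *Nfkbia* (-0.61, edgeR adjusted p = 0.0938) and *Sgk1* (-0.93, edgeR adjusted p = 0.0942).

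Of 14 immediate early genes 13 had a lower mean (median log2 fold change -0.55), 7 at an unadjusted p under 0.05 (8.48% of all genes). Their sum, 216 to 282 CPM in *Atm*-WT mice against 137 to 206 CPM in *Atm*-KO mice, was again apart. Taken singly, 0 of the 14 genes lay apart between genotypes, where 5.12% of all genes did with *Atm*-KO lower and 6.47% with it higher. Of 9 heat and cold response genes 8 were lower in mean (median -0.53), 4 at an unadjusted p under 0.05 (8.48% of all genes), with sums of 2180 to 3286 CPM and 1775 to 2126 CPM. *Hspa8*, a heat shock chaperone, had the smallest p of that list (log2 fold change -0.79, edgeR adjusted p = 0.0931). No gene of these lists had an adjusted p under 0.05 in edgeR. The part of these responses in the level of *Per1* and the other members was not tested.

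Cell types of the cerebellum were read by 8 markers each, and in bulk tissue fewer cells of a type and less RNA per cell cannot be told apart. Of all genes tested, 53.1% were lower in mean, the share beside which the counts of lower markers stand. Granule cell markers, the main cell of the tissue, summed to 4921 to 5967 CPM in *Atm*-WT mice against 5297 to 7208 CPM in *Atm*-KO mice, with 2 of 8 lower in mean. Purkinje cell markers summed to 8267 to 10273 and 8183 to 9782 CPM, with 7 of 8 lower. Markers of glia and vessels were lower in mean in all 8 for astrocytes (2484 to 2695 and 2245 to 2499 CPM), oligodendrocytes (3369 to 4411 and 2033 to 3485 CPM), microglia (133 to 175 and 103 to 136 CPM) and mural cells (199 to 246 and 150 to 201 CPM), and 6 of 8 for endothelium (241 to 265 and 194 to 250 CPM). Those of choroid plexus (811 to 1608 and 445 to 1254 CPM) were lower in 8 of 8 and those of meningeal fibroblasts (110 to 142 and 91.8 to 121 CPM) in 6 of 8. The tissue matched its label, with both neuronal lists at 4921 CPM or more in every mouse, and the pineal and retinal markers, for tissues with strong clocks of their own, summed to at most 1.51 CPM in any mouse. The part of these shifts in the members' values was not tested.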

How the data were processed

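RNA of 8 mouse cerebella (4 per genotype) was extracted with TRIzol and sequenced through Novogene on an Illumina HiSeq platform. Per the labels and the paper, reads were checked with FastQC 0.11.9, aligned with STAR to GRCm39 with GENCODE Release 28 and counted with featureCounts. The authors deposited raw counts per gene, not normalized. Strand and pair settings are not given in the sources used here.

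Identifiers were matched without version to GENCODE vM39 (56017 of 56691, 98.8%), which supplied symbols, positions, overlaps and promoters. Libraries were grouped by the genotype in their labels, and each is 1 mouse. With at least 65967130 counts per library, depth did not limit the members.

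Counts were fitted over the whole table with edgeR 4.0.16 (R 4.3.3): filterByExpr, TMM, glmQLFit and glmQLFTest, no covariate, Benjamini-Hochberg adjustment. CPM use TMM factors, and log2 CPM a prior count of 2. Single values were compared by two-sided exact permutation tests. Alternatives were DESeq2 1.42.0 (named in the labels and the paper's methods, while a figure legend of the paper names limma), limma 3.58.1 voom, other scalings and filters, halved counts, no mitochondrial genes and each library left out. Members, lists and tests were chosen with earlier results of these data known. All members were named, with genes of the wider clock list whose p was under 0.05 or whose genotypes lay apart, up to 3 genes by smallest p in each response list, the 5 genes most like *Dbp* and *Bmal1*, and *Atm*, *Thra*, *Sphk2*, *Xist* and *Clock* as checks or partners. Of the wider clock genes this rule names, 1 is not reported here, and the counts and median of the list include it.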

Additional observations from a re-analysis of the deposited data

Results flagged for a closer look

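In 6 of 54 groups of 4 mice, 1 mouse stood apart from the other 3 by Dixon's ratio at its 95% critical value, where chance alone gives about 2.7. *Per1* in *Atm*-WT mouse 32M was 51.0 CPM, with the others at 85.5 to 91.9 CPM. *Cry1* in *Atm*-WT mouse 7M was 70.9 CPM, with the others at 51.2 to 54.4 CPM. The log2 ratio of *Dbp* to *Bmal1* in the same mouse, 7M, was -0.26, with the others at 0.62 to 0.70. Among the other clock genes, *Usp2* in *Atm*-WT mouse 32M was 95.7 CPM (others 116 to 119 CPM), and *Fbxw11* in *Atm*-WT mouse 13M was 364 CPM (others 304 to 306 CPM). Total counts in *Atm*-KO mouse 12M were 65967130, with the others at 76598492 to 78431478.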

How the results depend on the processing

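All 10 members kept the sign of their log2 fold change under all 16 alternatives each, with ranges of -0.63 to -0.37 for *Per1*, -0.54 to -0.29 for *Nr1d1*, -0.30 to -0.22 for *Hlf* and 0.18 to 0.38 for *Per3*. The adjusted p ranged over them from 0.0601 to 0.295 for *Per1*, 0.0349 to 0.294 for *Nr1d1* and 0.012 to 0.293 for *Hlf*. The count of members at an unadjusted p under 0.05 was 3 (20.2% of all genes), also with RLE factors and limma voom. It was 4 with at least 10 counts in every library (21% of all genes), halved counts (20.7%) or DESeq2 (13.8% of its genes with a p), where *Per3*, higher, was added. With mitochondrial genes left out it was also 4 (20.2%), and *Cry2*, lower, was added. Library size alone gave 5 (19.2% of all genes), adding *Per3* and *Bmal1* (edgeR unadjusted p = 0.0314), both higher. No filter gave 5 (14.8% of all genes), adding *Per2*, lower, and *Per3*, higher. With 1 library left out the count was 3 to 5, and 5 without *Atm*-WT 7M, *Atm*-WT 32M or *Atm*-KO 1M (20%, 15.6% and 13.6% of all genes). Without 7M *Bmal1* was among the 5 and higher, and without 32M or 1M all 5 were lower. The count at an adjusted p under 0.05 was 0 in edgeR and 2 in DESeq2, and for the other clock genes 0 in edgeR, 2 with no filter (where 591 of 36568 genes passed) and 3 in DESeq2. The ratio of *Dbp* to *Bmal1* differed by -0.62 to -0.27 with 1 library left out. Correlations with *Bmal1* near 0 changed sign: *Cry1* (0.03) was -0.11 with library size alone. With genotype means taken out *Per1* was 0.20, *Per2* 0.01, *Per3* -0.09 and *Cry2* 0.44. With 1 library left out *Per1* ran from -0.41 to 0.03, *Per2* from -0.55 (without *Atm*-WT 32M) to -0.02 (without *Atm*-KO 7F), *Per3* from 0.00 (without *Atm*-WT 32M) to 0.55 (without *Atm*-KO 7F), *Cry1* from -0.41 to 0.36 and *Cry2* from -0.40 to 0.09. The cause of these changes was not tested. The median log2 fold change of all genes was -0.018 with TMM and 0.031 with library size alone. No paired analysis was possible because the labels pair no mice across genotypes, and number 7 is the only one that occurs in both.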
